A study of Homo sapiens with 6 samples.

Results

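The carboxy-terminal domain (CTD) phosphatases remove phosphate from the repeated tail of RNA polymerase II and from a smaller set of other proteins. They were followed here in BL2, an established human Burkitt lymphoma cell line of B cell origin, through 5 genes: CTDSPL, CTDSP2, CTDSP1, CTDSPL2 and CTDP1. All probe sets that the platform annotation gives to 1 of these genes alone were taken, which were 13 of 54675 on the array: 5 for CTDSPL, 4 for CTDSPL2, 2 for CTDSP2 and 1 each for CTDSP1 and CTDP1. The family was chosen by measured values: it was selected on the difference between the 2 siRNA groups, where 1 CTDSPL probe set stood out. Differences of these probe sets between the 2 siRNA groups are therefore given as a description. They also entered the fit over the whole array. How many of them passed it is given beside the share or count of all probe sets, as a count that supports nothing.

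BL2 cells were electroporated with LEF1 siRNA, a pool of 4 siRNAs, or with scrambled siRNA, and each group held 3 biological replicates according to the design text. The labels name 3 batches, each with 1 array of LEF1 siRNA and 1 array of scrambled siRNA. Both groups were electroporated and both received siRNA, so the comparison holds no untreated cells, and a pool does not separate one siRNA from another. LEF1 is a transcription factor through which beta-catenin acts on Wnt target genes, and the comparison asks which transcripts differ once it is lowered.

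During transcription, kinases phosphorylate the tail of RNA polymerase II, and phosphatases reset it. CTDP1 (also called FCP1) acts on elongating and released polymerase, together with the general factor TFIIF. CTDSP1, CTDSP2 and CTDSPL are the small CTD phosphatases, which act with the repressor REST on neuronal genes and also dephosphorylate other proteins such as SMADs. CTDSPL has been described as a phosphatase of the retinoblastoma protein. CTDSPL2 is a larger relative with the same catalytic fold. Introns of CTDSPL, CTDSP2 and CTDSP1 carry the hairpins of the miR-26 family, and MYC, the oncogene of Burkitt lymphoma, is known to repress miR-26a.

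The miR-26 sequences are shown because 3 of the 5 genes are hosts of these hairpins. In RefSeq (GRCh38.p14), CTDSPL spans chr3:37861880-37984469 and holds MIR26A1 at chr3:37969404-37969480 on the plus strand. CTDSP2 spans chr12:57819927-57846729 and holds MIR26A2 at chr12:57824609-57824692 on the minus strand. CTDSP1 spans chr2:218396351-218405941 and holds MIR26B at chr2:218402646-218402722 on the plus strand. CTDSPL2 at chr15:44427629-44529038 and CTDP1 at chr18:79676768-79756625 held no listed hairpin. Both hairpins of miR-26a give the same 5p arm, and miR-26a-5p and miR-26b-5p share their seed, bases 2 to 8, shown in capitals:
hsa-miR-26a-5p: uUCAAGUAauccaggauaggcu
hsa-miR-26b-5p: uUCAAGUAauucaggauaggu
The 3p arms of the 2 miR-26a hairpins differ outside a shared seed:
hsa-miR-26a-1-3p: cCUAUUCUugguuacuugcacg
hsa-miR-26a-2-3p: cCUAUUCUugauuacuuguuuc
No probe set of the array was annotated to a miR-26 gene, so the values below are those of the host transcripts.

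Values are log2 expression per probe set, errors are SDs over 3 arrays, and differences are LEF1 siRNA minus scrambled siRNA unless named otherwise. Array medians ran from 6.89 to 6.96, and 11 of the 13 probe sets lay above them on all 6 arrays. In such bulk RNA, fewer cells with a transcript and less of it per cell cannot be told apart. Levels of different probe sets are not compared, because probes differ in brightness for the same amount of RNA. B cell markers averaged 11.5 to 11.6 with LEF1 siRNA and 11.5 to 11.7 with scrambled siRNA over 7 genes. Of these MME, the CD10 gene, fell by 0.43 with groups that overlapped. It passed with batch as block but not without block (limma adjusted p = 0.000605 and 0.70). Markers of T cells (5 genes), myeloid cells (4), epithelial cells (4) and erythroid cells (2) averaged between 6.62 and 7.27 in every array. The beta-actin control read 0.18, 0.30 and 0.22 higher at the 3' than at the 5' end with LEF1 siRNA, against 0.07, -0.03 and 0.10 with scrambled siRNA, so these control values did not overlap. The GAPDH control lay between 0.04 and 0.10 in both groups, and the part of RNA integrity in the results below was not tested.

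The LEF1 transcript was lower in every batch. Its brightest probe set read 8.21, 8.09 and 8.67 in batches 1, 2 and 3 with LEF1 siRNA, against 11.09, 10.58 and 11.45 with scrambled siRNA. The mean difference was -2.71, which left 15.2% of the signal (limma adjusted p = 0.0213 without block and 7.46e-11 with batch as block). Without block, the call was lost when LEF1 siRNA replicate 1 or 2 or scrambled siRNA replicate 1 or 3 was left out (limma adjusted p between 0.0771 and 0.241). The other LEF1 probe sets differed by -1.84 and -0.29, and all 3 had groups that did not overlap.

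CTDSPL read lower with LEF1 siRNA at each of its 3 probe sets that lie above the array medians. Probe set 201904_s_at read 7.96, 8.05 and 7.99 with LEF1 siRNA, against 8.56, 8.61 and 8.64 with scrambled siRNA. The highest LEF1 siRNA array thus lay below the lowest scrambled siRNA array, and the SD was 0.04 in each group. Its difference was -0.60, with -0.60, -0.56 and -0.65 in batches 1, 2 and 3, and 65.8% of the signal was left. This is the value that chose the family.

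Probe set 201906_s_at of CTDSPL read 7.62, 7.73 and 7.87 with LEF1 siRNA, against 8.06, 8.11 and 8.27 with scrambled siRNA. Its groups did not overlap either, and batch 3 was the highest in both. The batch differences were -0.44, -0.38 and -0.40, so that 75.5% of the signal was left. At 201905_s_at, a dimmer probe set, the values were 7.17, 7.22 and 6.97 with LEF1 siRNA, against 7.25, 7.36 and 7.29 with scrambled siRNA. The groups stood apart by less there, without overlap, and the batch differences of -0.08, -0.14 and -0.32 varied more.

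The last 2 CTDSPL probe sets lay below the array median on all 6 arrays. Probe set 214187_x_at read 6.69 to 6.71 with LEF1 siRNA and 6.66 to 6.71 with scrambled siRNA. Probe set 213597_s_at read 6.08 to 6.18 with LEF1 siRNA and 6.07 to 6.17 with scrambled siRNA. Their groups overlapped, and at this brightness no statement on the transcript is made from them. The suffix x_at marks probes that can also bind other transcripts.

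**Figure D1:**
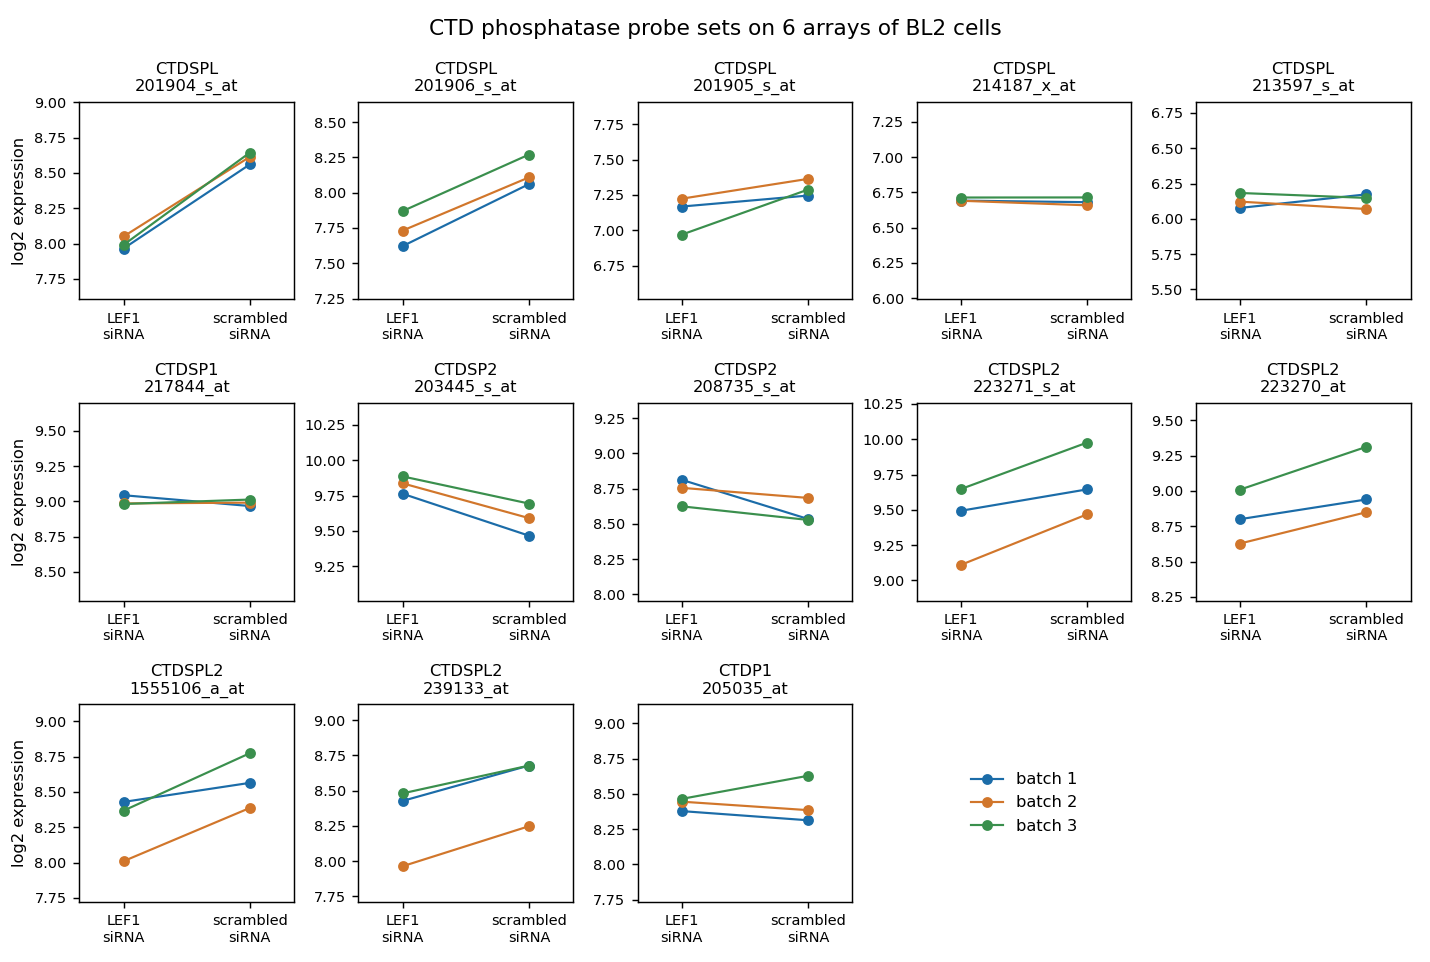
Log2 expression of the 13 CTD phosphatase probe sets, 1 panel each with a y axis of equal length, for LEF1 siRNA (left) and scrambled siRNA (right). Each line joins the 2 arrays of 1 batch. The lines of CTDSPL 201904_s_at, 201906_s_at and 201905_s_at and of the 4 CTDSPL2 panels are lower at LEF1 siRNA in every batch. Those of both CTDSP2 panels are higher.

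CTDSP2, which encodes another small CTD phosphatase, read higher with LEF1 siRNA. Its brighter probe set, 203445_s_at, read 9.76, 9.84 and 9.89 with LEF1 siRNA, against 9.47, 9.59 and 9.69 with scrambled siRNA. All 3 LEF1 siRNA arrays lay above all 3 scrambled siRNA arrays, with differences of 0.30, 0.25 and 0.19 in batches 1, 2 and 3. That is 119% of the signal with scrambled siRNA. The dimmer 208735_s_at read 8.81, 8.76 and 8.62 with LEF1 siRNA, against 8.53, 8.68 and 8.53 with scrambled siRNA. There the groups overlapped, and the batch differences were 0.28, 0.07 and 0.10. Setting each array to its poly-A spike-ins, which lowers the median difference of all probe sets by 0.12, brought the 2 differences to 0.13 and 0.03.

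CTDSP1, the founding small CTD phosphatase, showed almost no difference at its single probe set. It read 9.04, 8.99 and 8.98 with LEF1 siRNA, against 8.97, 8.99 and 9.01 with scrambled siRNA. The mean difference was 0.01, with a SD of 0.06 over the 3 batch differences, and its sign varied between batches and with the scaling.

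CTDSPL2 read lower with LEF1 siRNA at all 4 of its probe sets and in all 3 batches. Probe set 223271_s_at read 9.49, 9.11 and 9.65 in batches 1, 2 and 3 with LEF1 siRNA, against 9.64, 9.47 and 9.98 with scrambled siRNA. Although the groups overlapped, the LEF1 siRNA array of each batch was the lower one, by 0.15, 0.36 and 0.33. Probe set 1555106_a_at read 8.43, 8.01 and 8.37 with LEF1 siRNA, against 8.56, 8.39 and 8.77 with scrambled siRNA. Its overlap between groups comes with a batch 1 LEF1 siRNA array that is above the batch 2 scrambled siRNA array.

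The remaining CTDSPL2 probe sets gave the same picture. Probe set 223270_at read 8.80, 8.63 and 9.01 with LEF1 siRNA, against 8.94, 8.85 and 9.31 with scrambled siRNA. Probe set 239133_at read 8.43, 7.96 and 8.48 with LEF1 siRNA, against 8.68, 8.25 and 8.68 with scrambled siRNA. The mean differences of the 4 probe sets ran from -0.31 to -0.22, which left 80.9% to 85.8% of the signal. Single arrays moved some of these values by over 1.5 times: without LEF1 siRNA replicate 2 they ran from -0.18 to -0.08, without scrambled siRNA replicate 2 from -0.40 to -0.31, and without scrambled siRNA replicate 3 from -0.21 to -0.08. Leaving out 1 array breaks the pairing by batch, so level differences between batches enter these values. With whole batches left out, the 4 differences ran from -0.39 to -0.24 without batch 1. They ran from -0.27 to -0.22 without batch 2 and from -0.27 to -0.18 without batch 3. The 4 CTDSPL2 probe sets share 1 gene and the same 6 arrays, so they are not independent measurements.

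CTDP1, the phosphatase of elongating polymerase, read 8.38, 8.44 and 8.46 with LEF1 siRNA, against 8.31, 8.38 and 8.63 with scrambled siRNA. It was higher with LEF1 siRNA in batches 1 and 2 and lower in batch 3, for a mean difference of -0.01. Its SD over the 3 batch differences was 0.13, and the groups overlapped.

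**Figure D2:**
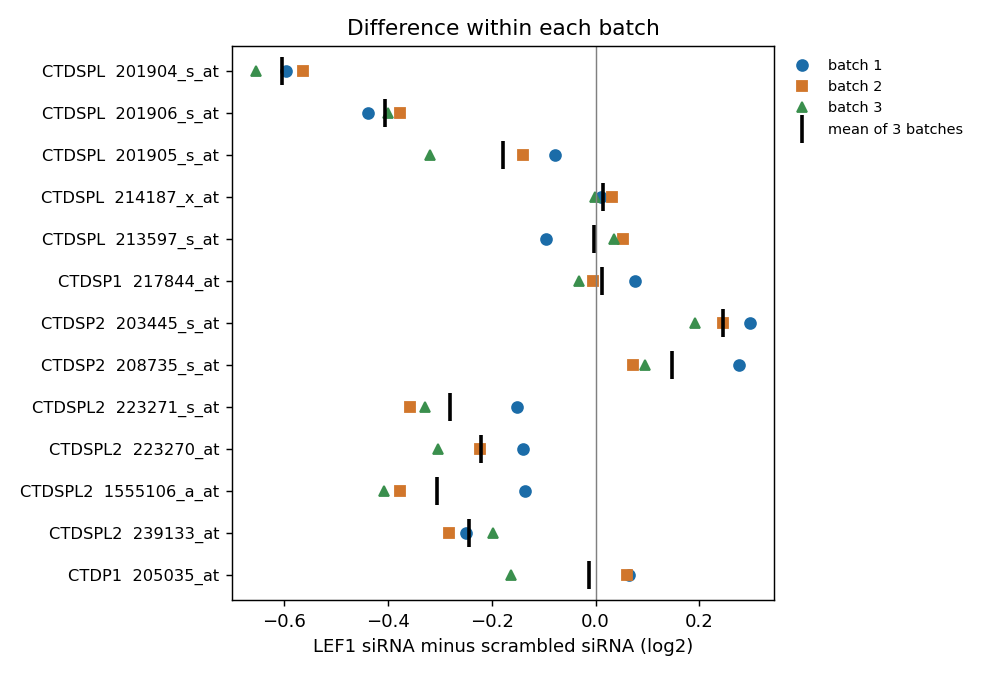
LEF1 siRNA minus scrambled siRNA on the log2 scale within each batch, for the 13 CTD phosphatase probe sets. Symbols are the 3 batches and the black bar is their mean. CTDSPL 201904_s_at lies furthest left at -0.60, the CTDSPL2 means lie between -0.31 and -0.22, and the CTDSP2 means are 0.25 and 0.15.

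Over the family, 9 of the 13 probe sets had the same sign in all 3 batches, where 36.5% of all probe sets did, and 7 of these were lower each time, where 14.4% of all were. The groups did not overlap at 4 of the 13, where this held for 12.5% of all, and LEF1 siRNA was the lower group at 3 of them, where this held for 4.59% of all. In the limma fit over all 54613 probe sets without block, 1 of the 13 passed, CTDSPL 201904_s_at, where 0.0183% of all probe sets did, 0.00732% as lower and 0.011% as higher. With batch as block 6 of the 13 passed as lower, where 1.51% of all did, and 1 as higher, where 4.58% of all did. In either direction these 7 compare with 6.09% of all probe sets and with 12.7% once dim ones were left out. They were 2 of CTDSPL, all 4 of CTDSPL2 and 203445_s_at of CTDSP2. The rule that chose the family used the same contrast, so nothing is read from these counts. The single call without block was lost when any 1 of the 6 arrays was left out, on the spike-in scale, with dim probe sets left out, and with an intensity trend in the prior variance. The blocked calls of all 4 CTDSPL2 probe sets and of CTDSP2 were lost without batch 2, which left the 2 of CTDSPL, and that of CTDSP2 also without batch 1 or on the spike-in scale. Without batch 3, 223270_at of CTDSPL2 was lost.

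**Figure D3:**
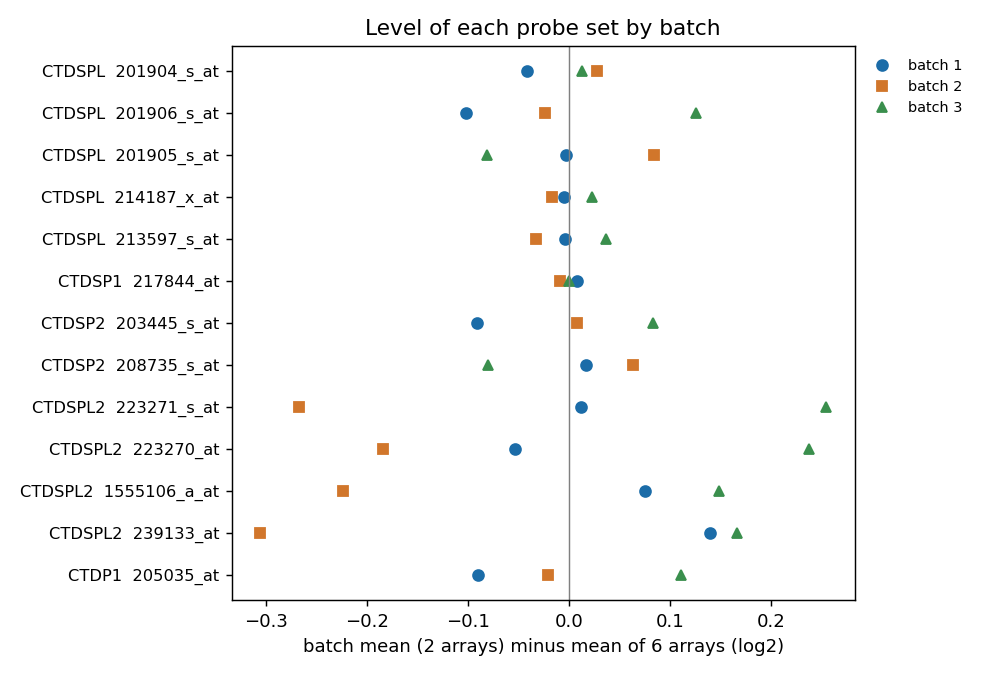
Mean of the 2 arrays of each batch minus the mean of all 6 arrays, on the log2 scale, for the 13 CTD phosphatase probe sets. In the 4 CTDSPL2 rows batch 2 lies furthest left and batch 3 furthest right, and the spread in the CTDSP1 row is the narrowest.

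Each batch held both groups, so the level by batch is a measure that does not use the siRNA contrast, and it could be tested. All 4 CTDSPL2 probe sets differed between batches (limma moderated F test, adjusted p = 0.000869 for 239133_at, 0.00149 for 223271_s_at, 0.00389 for 223270_at and 0.0121 for 1555106_a_at). The other 9 probe sets of the family did not pass, and 13.7% of all probe sets did. Probe set 223271_s_at averaged 9.57, 9.29 and 9.81 in batches 1, 2 and 3, and each of the 4 was lowest in batch 2 and highest in batch 3. Among all probe sets that differed between batches, 38.5% had this order.

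CTDSP1 was the most even of the 13, with batch means that spanned 0.02. For CTDSPL, 201904_s_at varied over batches by 0.07, against -0.60 between the siRNA groups. The brightest LEF1 probe set also differed between batches, with means of 9.65, 9.34 and 10.06 in batches 1, 2 and 3 (limma moderated F test, adjusted p = 0.000494). On the spike-in scale 10 of the 13 probe sets differed between batches. The poly-A spike-ins averaged 7.99, 7.77 and 8.18 with LEF1 siRNA and 7.86, 7.69 and 8.03 with scrambled siRNA.

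LEF1 binds letters such as CTTTGAA or likewise CTTTGAT, also CTTTGTA or likewise CTTTGTT. These were searched on both strands in the promoter windows of RefSeq (GRCh38.p14, 250 bases before to 50 after a listed start). They were found in 13.8% of the 35116 windows listed. CTDSP2 and CTDSPL2, which have 1 window each, held none, nor did either of the 2 windows of CTDP1. The CTDP1 windows begin at chr18:79679553 and chr18:79681180, inside its RefSeq span, so the start of that span was not searched. Of the 7 windows of CTDSP1, 1 held a match. CTDSPL has no entry in the table. The windows of CTDSP2 (chr12:57846680-57846979, minus strand) and of CTDSPL2 (chr15:44427379-44427678, plus strand) are given because these genes have a single window in the table, and they hold no capitals because no letters matched:
CTDSP2: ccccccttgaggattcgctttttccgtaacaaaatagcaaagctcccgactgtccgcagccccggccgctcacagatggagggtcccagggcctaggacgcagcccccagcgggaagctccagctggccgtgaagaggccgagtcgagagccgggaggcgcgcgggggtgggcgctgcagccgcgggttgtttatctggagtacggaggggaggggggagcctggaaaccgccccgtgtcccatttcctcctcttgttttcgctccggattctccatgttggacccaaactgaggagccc
CTDSPL2: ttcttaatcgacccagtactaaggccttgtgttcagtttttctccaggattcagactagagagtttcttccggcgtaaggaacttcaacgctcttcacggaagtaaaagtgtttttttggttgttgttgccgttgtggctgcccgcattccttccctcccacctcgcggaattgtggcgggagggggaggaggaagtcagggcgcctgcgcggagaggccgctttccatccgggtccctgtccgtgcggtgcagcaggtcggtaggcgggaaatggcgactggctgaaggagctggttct
A window without these letters says nothing about binding elsewhere.

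The genes around the 5 members were looked at for changes shared with a neighbour. Of 20 neighbouring protein-coding genes, taken as the 2 nearest measured genes on each side, none passed without block by limma. With batch as block 3 passed, all higher, where 8.43% of all genes passed at their brightest probe set, 6.73% as higher. Both called neighbours of CTDSPL2 read in the opposite direction to it: SPG11, mutated in a hereditary spastic paraplegia, rose by 0.39, with 9.49, 9.54 and 9.72 with LEF1 siRNA against 9.21, 9.03 and 9.35 with scrambled siRNA (limma adjusted p = 0.0019 with batch as block). GOLM2, a Golgi membrane protein gene, rose by 0.29 (limma adjusted p = 0.0225 with batch as block). ATP9B, a flippase-family gene on the lower-coordinate side of CTDP1, rose by 0.35 (limma adjusted p = 0.00503 with batch as block). NFATC1, which lies between ATP9B and CTDP1, differed by -0.05 and did not pass. EIF3J, which lies between CTDSPL2 and SPG11, differed by -0.01 and did not pass. None of the 4 neighbours of CTDSPL passed.

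The 5 genes whose values were closest to those of CTDSPL 201904_s_at were CCDC88C, PSAT1, HSPB1, S1PR3 and CDC27. Likeness was the root mean square difference of values centred on their own mean over the 6 arrays, among 23058 probe sets of single genes above the median level. It was 0.051 for CCDC88C, 0.055 for the serine synthesis gene PSAT1, 0.069 for the small heat shock protein gene HSPB1, and 0.104 for both the sphingosine phosphate receptor gene S1PR3 and the anaphase-promoting complex gene CDC27. The same measure of CTDSPL against its own mean was 0.304. CCDC88C, which encodes a Dishevelled-binding protein of Wnt signalling, read 9.34, 9.29 and 9.28 with LEF1 siRNA, against 9.78, 9.94 and 9.90 with scrambled siRNA. All 5 read lower with LEF1 siRNA on every array of every batch, which follows from how they were chosen.

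**Figure D4:**
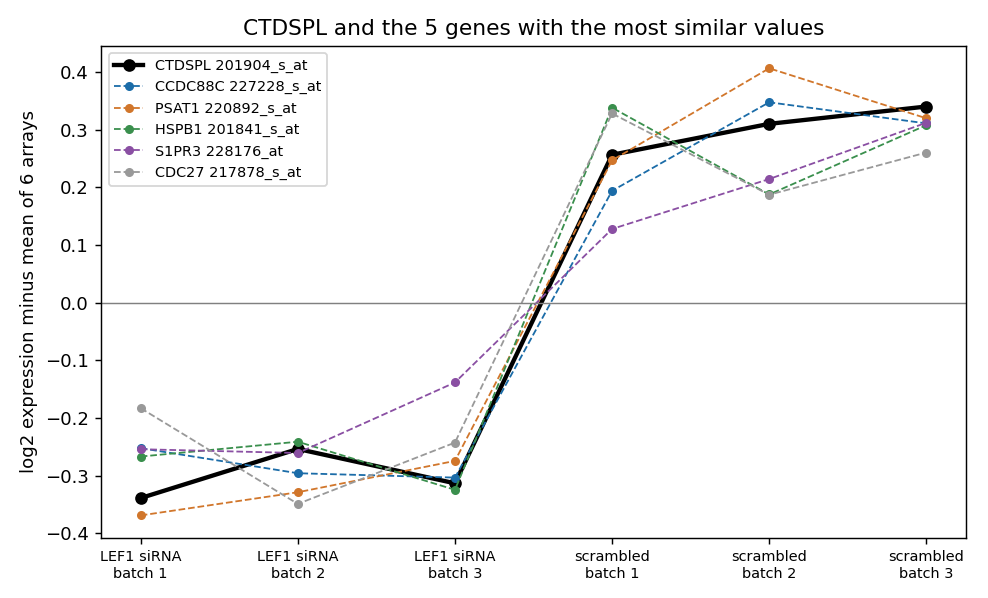
Log2 expression minus the mean of 6 arrays for CTDSPL 201904_s_at (black) and the 5 genes closest to it, with the 3 LEF1 siRNA arrays on the left and the 3 scrambled siRNA arrays on the right. All 6 lines lie below 0 in the LEF1 siRNA arrays and above 0 in the scrambled siRNA arrays.

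Genes that work with these phosphatases were followed in 8 lists of 86 genes, of which 81 were measured, each by its brightest probe set. Without block 0 of the 81 passed by limma, where 0.0253% of all genes passed. An unadjusted p under 0.05 was found for 15 of the 81, and for 4280 of all 54613 probe sets. With batch as block 14 passed, 12 higher and 2 lower, where 6.73% of all genes passed as higher and 1.7% as lower. These genes were mostly bright: with dim probe sets left out, 75 of the 81 remained. Of those 14 passed, where 12.7% of the remaining probe sets did, a share of probe sets rather than genes. The p-values below are from the fit with batch as block over all probe sets, and none of these 14 calls holds without block. The counts of lists depend on the scaling, as given beside them. On the spike-in scale 8797 of all 54613 probe sets passed with batch as block, 11% of them as higher. The median difference of all probe sets was -0.11 on that scale. With quantile normalization 3315 of all passed, 56.2% of them as higher.

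Among 4 relatives with the FCP/SCP fold and their partner, 1 gene rose. UBLCP1, the phosphatase of the nuclear proteasome, read 11.01, 10.85 and 10.99 with LEF1 siRNA, against 10.58, 9.87 and 10.44 with scrambled siRNA. It rose by 0.65 at this probe set, with groups that did not overlap, and by 0.29 at its other one (limma adjusted p = 0.000579 and 0.0303). The first is an x_at probe set, which can also bind other transcripts. CTDNEP1, a phosphatase of the nuclear envelope, and the mitochondrial import gene TIMM50 did not pass, at -0.08 and -0.21. The median difference of the list was -0.0028, against 0.02 over all genes. Quantile normalization and the spike-in scale each added 1 lower gene.

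Of 8 phosphatases of other folds and their scaffolds, 1 rose. SSU72, which removes phosphate from serine 5 of the tail repeat, rose by 0.25 (limma adjusted p = 0.0199), but 2 of its 4 probe sets read in the opposite direction and it was not called on the spike-in scale or without batch 2 or 3. The list median was 0.03.

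CTD kinases and their cyclins gave 2 higher genes of 12. CDK19, a kinase of the Mediator complex, read 8.73, 8.67 and 8.99 with LEF1 siRNA, against 8.37, 8.37 and 8.61 with scrambled siRNA, and rose by 0.35 without overlap (limma adjusted p = 0.00252). Its other 3 probe sets did not pass, at 0.19, 0.17 and -0.01. CCNT2, a cyclin of the elongation kinase P-TEFb, rose by 0.34, with differences of 0.09, 0.44 and 0.48 in batches 1, 2 and 3 (limma adjusted p = 0.0126). It was not called without batch 2. The list median was 0.08. On the spike-in scale it was -0.04, against -0.11 over all probe sets, with 2 genes higher and 1 lower.

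Among 14 subunits of RNA polymerase II and TFIIF, 1 rose and 1 fell. POLR2B, the second largest subunit, rose by 0.28 at its brightest probe set (limma adjusted p = 0.0119), against 0.07 and 0.10 at its other ones. POLR2C fell by 0.24, with -0.23, -0.25 and -0.22 in batches 1, 2 and 3 (limma adjusted p = 0.0214), against -0.07 and -0.04 at its other ones. Neither passed without batch 2. The median of the list was -0.10, and it was 0.01, -0.08 and -0.20 in batches 1, 2 and 3. On the spike-in scale 8 fell and 0 rose, where 8797 of all 54613 probe sets passed, 11% of them as higher. With quantile normalization 2 fell and 1 rose, where 3315 of all passed.

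Pausing and elongation factors gave no call among 9 genes by limma with batch as block. Of these 1 had an unadjusted p under 0.05, where 9330 of all 54613 probe sets did. The largest differences were 0.20 for MEPCE, an RNA methyltransferase of the 7SK complex, and -0.11 for the pausing factor NELFCD. On the spike-in scale 2 fell, where 8797 of all probe sets passed, 11% of them as higher.

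The REST complex, with which small CTD phosphatases act, had 3 of 10 measured genes higher and none lower. REST itself read 8.97, 9.09 and 9.32 with LEF1 siRNA, against 8.59, 8.48 and 8.62 with scrambled siRNA. It rose by 0.56 at this probe set, its brightest, without overlap (limma adjusted p = 0.000278), and its other probe sets differed by -0.03 and 0.05. The corepressor genes RCOR1 and RCOR3 rose by 0.24 each (limma adjusted p = 0.0284 and 0.0363). Neither passed with any of the 4 alternative scalings or without batch 2, and RCOR1 also did not pass without batch 3. The other RCOR1 probe set differed by -0.10 and did not pass, and those of RCOR3 differed by 0.21, which passed, and 0.11, which did not. The list median was 0.09. On the spike-in scale it was -0.03, against -0.11 over all probe sets.

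Of 12 reported substrates other than polymerase, 4 rose and 1 fell. RB1, the retinoblastoma gene, read 10.69, 10.32 and 10.51 with LEF1 siRNA, against 10.30, 9.65 and 10.26 with scrambled siRNA. Its rise of 0.44 had no overlap between groups (limma adjusted p = 0.0027), but its dimmer probe set differed by -0.05. RBL2, a relative of RB1, rose by 0.36 at 1 probe set and differed by 0.01 at the other (limma adjusted p = 0.0091 for the first), and did not pass without batch 2. SMAD1, a mediator of BMP signals, fell by 0.43 with groups that overlapped (limma adjusted p = 0.00266), and its other probe sets differed by 0.02 and -0.04. The remaining calls were rises of SMAD5 and SMAD9, by 0.28 and 0.24. SMAD5 did not pass with equal medians, on the spike-in scale or without batch 1 or 2, and its other 4 probe sets differed by -0.01 to 0.11 and did not pass. SMAD9 did not pass with any of the 4 alternative scalings or without batch 2 or 3, and its other probe set differed by 0.04. On the spike-in scale the list had 2 genes higher and 4 lower, where 8797 of all probe sets passed, 11% of them as higher. The list median was 0.00.

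None of 12 measured genes reported as miR-26 targets passed by limma with batch as block. Of these 3 had an unadjusted p under 0.05, where 9330 of all 54613 probe sets did. MAP3K2, a kinase gene, differed by 0.19 and CCNE1, the cyclin E1 gene, by -0.14. EZH2, the histone methyltransferase known as a miR-26a target, differed by 0.16, with 0.09, 0.22 and 0.16 in batches 1, 2 and 3. The list median was 0.01. On the spike-in scale 3 fell, where 8797 of all probe sets passed, 11% of them as higher.

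**Figure D5:**
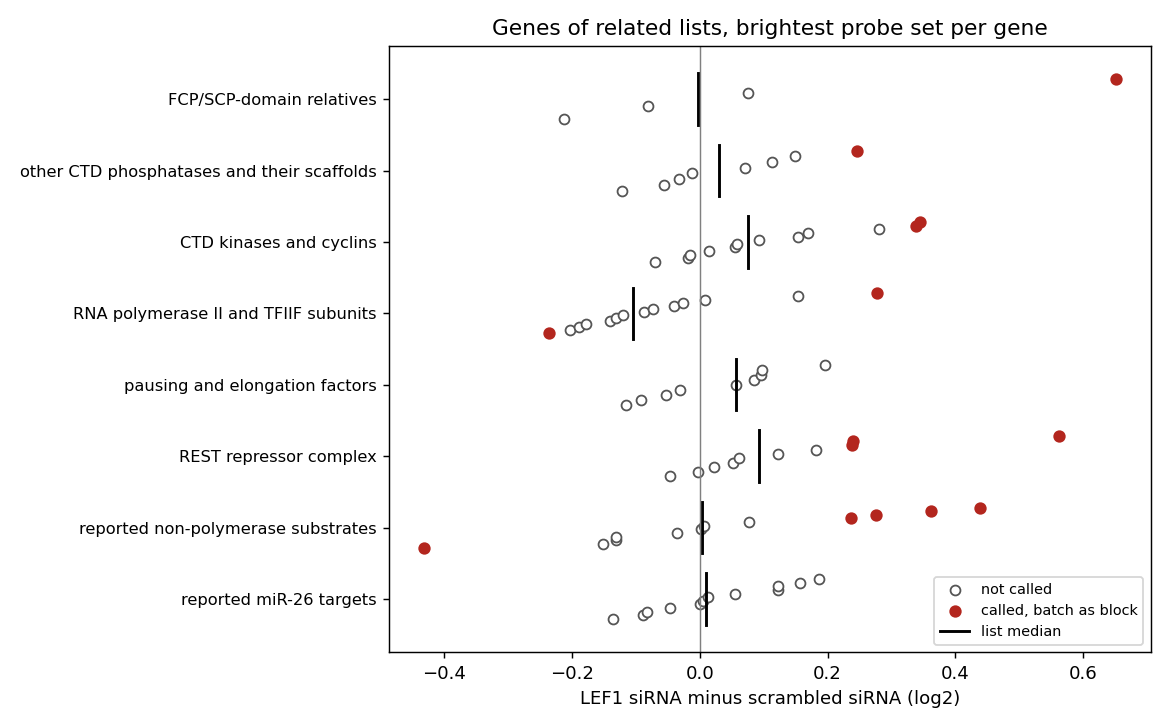
Difference of LEF1 siRNA minus scrambled siRNA on the log2 scale for the 81 measured genes of 8 lists, brightest probe set per gene. Filled points passed with batch as block and the black bar is the list median. UBLCP1 at 0.65 and REST at 0.56 lie furthest right, and SMAD1 at -0.43 furthest left.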

How the data were processed

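Gene expression was measured on 6 HG-U133 Plus 2.0 arrays of BL2 cells. Biotin-labelled cRNA came from 0.3 µg of total RNA by a kit that starts at the poly-A tail, as the labels' protocols say. The deposited values are log2 expression per probe set. The log2 scale is inferred from values between 5.45 and 15.0, and background correction, normalization and summarisation are not given in the sources used here. Precision is limited by how few arrays there are.

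The 62 control probe sets were left out, which left 54613. Of these, 41091 named 1 gene in the platform annotation, 1801 several and 11721 none here. RefSeq identifiers changed 0 symbols. No probe set of the 5 genes was shared with another gene.

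Each probe set was modelled by limma 3.58.1 (R 4.3.3) without block (4 residual and 4.07 prior degrees of freedom) and with the labelled batch as block (2 residual and 12.0 prior). P-values were adjusted by Benjamini-Hochberg over 54613 probe sets, with a threshold of 0.05. The batch label pairs the arrays: correlations of the arrays' deviations from their group mean were 0.477, 0.493 and 0.621 within batches 1, 2 and 3. Between batches they were -0.387 to -0.041. The deviations sum to 0 in each group, so positive values within batches bring negative ones between batches on balance. The latter therefore add nothing. The spike-in scale subtracts each array's mean over 24 poly-A spike-in probe sets. Related genes were named, up to 3 per list, by the smallest p with batch as block, or as the 2 with the largest difference where none passed; SMAD5, SMAD9, CTDNEP1, TIMM50, CCNE1 and MME were added after their values were seen. Members and lists were chosen with earlier results of these data known. Plots used matplotlib 3.10.9 under Python 3.11.15.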

Additional observations from a re-analysis of the deposited data

How the results depend on the processing

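With 6 arrays and 2 residual degrees of freedom in the blocked fit, every count is imprecise. Over all probe sets, limma without block called 10, and 3328 with the replicate block. Without block the count was 23 with quantile normalization, 23 with cyclic loess, 6 with an eBayes trend and 63 at a false discovery rate of 0.10, and it ran from 0 to 8 when 1 array was left out (0 without LEF1 siRNA replicate 2, where 3467 had an unadjusted p under 0.05). With the replicate block it was 3315 with quantile normalization, 2785 with equal medians, 3240 with cyclic loess, 8797 with poly-A spike-in scaling, 3465 with dim probe sets left out (added after seeing the data), and 3880, 1407 and 3626 without batch 1, 2 or 3.

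The LEF1 difference ran from -2.94 to -2.51 when 1 array was left out. Of the 13 CTD phosphatase probe sets, 1 was called without block, where 10 of all 54613 were, and 7 with the replicate block, where 3328 were. The blocked count was also 7 with each of the 4 scalings, where 2785 to 8797 of all were called. With dim probe sets left out it was 7, where 3465 of 27307 were. Without batch 1, 2 or 3 it was 6, 2 and 6, where 3880, 1407 and 3626 of all were. The family was selected on this contrast, so nothing is read from these counts. Of the 7 called with the replicate block, all were shared under quantile normalization, equal medians and cyclic loess. Poly-A spike-in scaling shared 6 of them and added CTDSPL 201905_s_at. Their sign was the same in all 7 under every blocked alternative. Without block the limma count was 0 with poly-A spike-in scaling, with dim probe sets left out and with an eBayes trend (5, 3 and 5 had an unadjusted p under 0.05), and 0 without each array in turn (3 to 6 with an unadjusted p under 0.05). Over all probe sets without block, spike-in scaling called 15, leaving out dim probe sets 8 and the eBayes trend 6. An unadjusted p under 0.05 was found there for 1091, 2901 and 3935. Without each array in turn it was found for 3108 to 4850. The cause of the losses among the 13 was not tested. Of the differences of single CTD phosphatase probe sets, none that was called changed sign. Between batches 10 of the 13 differed under poly-A spike-in scaling, against 4 on the deposited scale.

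Of 81 related genes, 0 were called without block under each alternative by limma, where 0 to 63 of all probe sets were. Of the 81, 4 to 19 had an unadjusted p under 0.05, where 1091 to 5176 of all probe sets did. With the replicate block 14 were called, where 3328 of all 54613 probe sets were. The count was 13 with quantile normalization (3315 of all), 10 with equal medians (2785) and 11 with cyclic loess (3240). It was 26 with poly-A spike-in scaling (8797 of all) and 14 with dim probe sets left out (3465 of 27307). Without batch 1, 2 or 3 it was 19, 6 and 12, where 3880, 1407 and 3626 of all were called.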
